A study of Homo sapiens with 6 samples.

Results

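The regions described here are the m6A peaks that the deposited peak annotation of TE-10 cells places in the 5'UTR, the untranslated stretch between the capped end of a transcript and its start codon. Every row with that location class was taken, which gave 1842 of 15940 peaks. The other classes held 1249 upstream, 5429 coding-exon, 3744 intron, 3423 3'UTR and 253 downstream peaks. The 5'UTR peaks carried 1696 host gene symbols, of 8906 over all peaks.

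TE-10 is an established line of human esophageal squamous carcinoma. Expression was measured by RNA-seq in 2 libraries of cells that carry a stable METTL3 short hairpin, whose titles number the hairpins 1 and 2, and in 1 control library of cells with normal METTL3. Peaks came from methylated RNA immunoprecipitation of TE-10 cells with normal METTL3, with 2 m6A immunoprecipitations whose labels give different antibody catalogue numbers and 1 input library. All RNA was polyadenylated and all libraries were made with a stranded kit, per the labels' protocols. No peaks from knockdown cells were used here, so the change of a 5'UTR peak on knockdown was not measured, only the RNA level of its host.

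N6-methyladenosine (m6A) is an internal methyl mark on mRNA, written by a complex around METTL3 mostly in a short consensus with GGAC at its core, and known for its density near stop codons and in long internal exons. A related mark, m6Am, sits on the first transcribed base next to the cap when that base is adenosine, and is written by PCIF1, not by METTL3. Antibodies against m6A also bind m6Am, so an enriched region at a transcript start can hold either mark. The peak list gives regions, not bases, so within these data m6A and m6Am at a start cannot be told apart. In 5'UTRs, m6A has been linked to translation that bypasses cap-binding factors, in particular under stress.

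Because m6Am needs adenosine as the first transcribed base, starts of the most highly expressed genes with a 5'UTR peak near the start are shown. The windows are RefSeq starts on build GRCh38.p14, written 5′ to 3′ on the gene's strand as 10 bases before the start and 20 bases from it, with the first transcribed base in capitals. Of the 10 such genes with the highest control value, 8 matched the promoter table, and HES1, the Notch target repressor, is added as a member of the pathway in the study's title.
HSPB1 (chr7:76302663-76302692, plus strand): ccagcgccccGcacttttctgagcagacgt
S100A2 (chr1:153565825-153565854, minus strand): tccaggccccAgagcaggggttgcctcccc
MT2A (chr16:56608574-56608603, plus strand): gctgcactccAccacgcctcctccaagtcc
BANF1 (chr11:66002493-66002522, plus strand): agaaagttctAgtggcttgaggtatccgca
CAPNS1 (chr19:36140056-36140085, plus strand): gttgcggcctGagtcaccggccccgccctc
CXCL1 (chr4:73869383-73869412, plus strand): tcggagagccAcagagcccgggccgcaggc
MYL12B (chr18:3262123-3262152, plus strand): ccgccccttcAggcaggaagtgtcggcgcc
PRDX5 (chr11:64318111-64318140, plus strand): ccaggcccgcCttccgcagggtgtcgccgc
HES1 (chr3:194136138-194136167, plus strand): cctagggatcAcacaggatccggagctggt
Adenine was the first base in 5 of the 8, in S100A2, MT2A, BANF1, CXCL1 and MYL12B, and also in HES1. HSPB1 and CAPNS1 begin with G and PRDX5 with C at the start used, which is the most upstream of the listed ones. The peak list measures distance from its own transcript start, which can be another one. Whether it is the start shown was not tested for any of these genes. A second set shows the 4 ribosomal protein genes of highest control value that matched the table. None of them has a 5'UTR peak, and all 4 begin with C, in the pyrimidine tract that is known to mark ribosomal protein transcripts.
RPLP1 (chr15:69452808-69452837, plus strand): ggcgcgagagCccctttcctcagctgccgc
RPL41 (chr12:56116623-56116652, plus strand): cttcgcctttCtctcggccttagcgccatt
RPLP0 (chr12:120201092-120201121, minus strand): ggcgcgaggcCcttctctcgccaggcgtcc
RPS27 (chr1:153990752-153990781, plus strand): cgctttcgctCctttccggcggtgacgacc

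The peak list's 5'UTR label covered different kinds of host transcript. By the transcript descriptions in the list, 1510 peaks (82.0%) lay on mRNAs, 232 (12.6%) on noncoding RNAs and 100 (5.43%) on clones or other records. A noncoding RNA has no 5'UTR, and its label followed the strand. Of the 332 5'UTR peaks not on an mRNA, 313 were on the minus strand and 19 on the plus strand, a minus-strand share of 94.3% (95% Wilson interval 91.2 to 96.3). For 5'UTR peaks on mRNAs the share was 50.7% (48.1 to 53.2). The 3'UTR class ran the other way, with 48 minus-strand and 504 plus-strand peaks on transcripts other than mRNA, a minus-strand share of 8.7% (6.62 to 11.3). For intron peaks off mRNAs it was 46.2%, and for upstream peaks 49.3%. Of the 161 genes whose 5'UTR peaks lay on noncoding descriptions, RefSeq types 36 as transcribed pseudogenes, 29 as long noncoding RNAs and 26 as protein coding, and 66 symbols did not match. Results below are therefore given for mRNA hosts unless another kind is named.

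**Figure D1:**
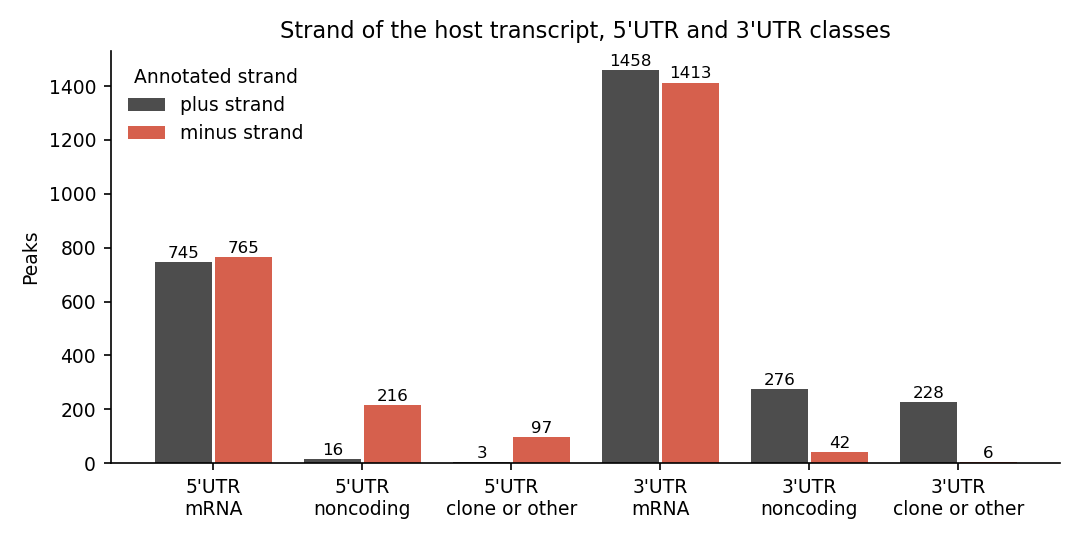
Peaks (y axis, number) of the 5'UTR class and the 3'UTR class by kind of host transcript (x axis), with plus-strand hosts in grey and minus-strand hosts in red. On mRNAs the strands are near even, while 216 of 232 5'UTR peaks on noncoding RNAs are on the minus strand and 276 of 318 3'UTR peaks on noncoding RNAs are on the plus strand.

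Most 5'UTR peaks on mRNAs lay close to the annotated start. The distance in the list runs from the start to the peak midpoint along the genome, introns included. Its median was 106 bases on mRNAs (quartiles 54 and 295), against 2283.5 bases on noncoding RNAs and 1773 on clones or other records. Within 200 bases of the start, called start-proximal here, lay 1070 of all 1842 peaks (58.1%, 55.8 to 60.3) and 1023 of the 1510 on mRNAs (67.7%, 65.3 to 70.1). On noncoding RNAs 30 of 232 were start-proximal (12.9%). The first 50 bases held 352 mRNA peaks, bases 51 to 100 held 374, and bases 101 to 200 held 297. From there the numbers were 112 at 201 to 300 bases, 95 at 301 to 500 and 76 at 501 to 1000. The bound cuts no gap: the nearest peaks inside it lay at 199 and 200 bases and the nearest outside at 201, 202 and 203.

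The peak interval itself covered the annotated start in 872 of the 1023 start-proximal mRNA peaks (85.2%). Around the start, mRNA midpoints of all classes together lay mostly on the transcribed side: 811 lay in the 100 bases after it, 719 of them 5'UTR, against 139 in the 100 bases before it, all labelled upstream. In the next 100 bases the numbers were 453 after and 72 before. The class label uses the side of the start, so the 5'UTR peaks could lie only after it, but the comparison over all classes does not depend on that label.

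**Figure D2:**
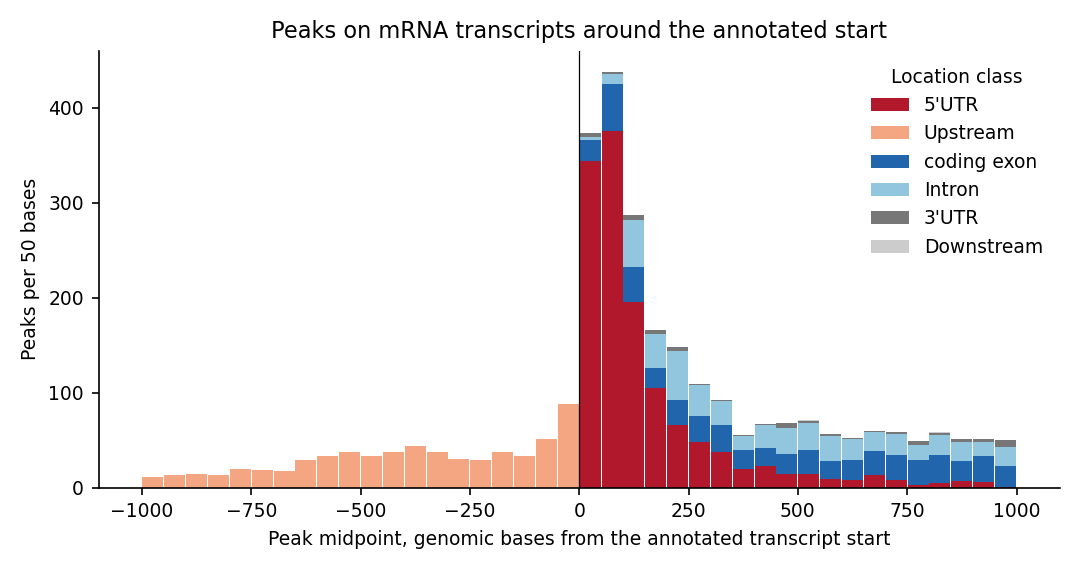
Peaks on mRNA transcripts per 50 bases (y axis) by the distance of the peak midpoint from the annotated start in genomic bases (x axis), stacked by location class. The 5'UTR class makes up 719 of the 811 peaks in the 100 bases after the start, and 139 upstream peaks lie in the 100 bases before it.

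Beyond 200 bases the mRNA peaks split into 283 intermediate peaks at 201 to 1000 bases and 204 distal peaks beyond 1000 bases, a bound chosen after the distances were seen. Of the mRNA peaks, 71 lay at 1001 to 5000 bases and 133 beyond 5000 bases of genomic distance. Distal peaks were more often on the minus strand, 128 against 76 on the plus strand, and among those past 5000 bases 90 against 43. The minus-strand excess seen off mRNAs thus recurred, to a lesser degree, among distal mRNA peaks. FRMD4B, a scaffold protein gene, showed both kinds: its peak at chr3:69591412-69591867 had its midpoint 94 bases from the start, and 2 further peaks lay 361464 and 370867 bases from it. SAMD12 held the peak farthest from the start on an mRNA, at 424350 bases. SRXN1, the sulfiredoxin gene, had 3 peaks at 27526 to 28660 bases, CCNJL 3 at 85923 to 87079 bases and ZNF318 3 at 11913 to 14054 bases. GPBP1 had 3 peaks at 132, 1672 and 2272 bases. These 5 genes have 3 5'UTR peaks each and were named as the hosts in the expression table with the most, ties being broken by the control value; CDK3 also has 3. Hosts on noncoding or clone records reached 5. Coordinates and class labels are the file's own, and whether peaks this far from the start lie in a 5'UTR was not tested.

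Start-proximal peaks were narrow. Their median width was 224 bases (quartiles 209 and 263), against 304 for intermediate and 299 for distal mRNA peaks, 356 for coding-exon peaks, 349 for 3'UTR peaks and 315 for all peaks. The narrowest peak in the list has 199 bases in every class. Under 250 bases wide were 68.0% of start-proximal peaks, against 20.8% of coding-exon peaks and 21.3% of 3'UTR peaks. Width also followed distance within the 5'UTR class, with medians of 218 bases at 0 to 50 bases, 223 at 51 to 100 and 251 at 101 to 200. Distance runs to the midpoint, so of peaks that begin at the start the wider have the larger distance and can fall outside the bound. Width and distance are therefore not independent here, and how much of these differences in width this accounts for was not tested. The widest 5'UTR peak, of 1794 bases at chr16:89984369-89986163, was annotated to TUBB3, a neuronal beta tubulin, with its midpoint 8 bases from the start. LPP-AS2, an antisense noncoding RNA, followed with 1699 bases and LBX2, a homeobox gene, with 1548.

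Start-proximal peaks also stood alone more often. Another peak of any class lay within 1000 bases of 178 of the 1023 (17.4%), in 150 cases on the same gene, against 34.3% of intermediate peaks, 35.8% of distal peaks, 38.7% of coding-exon peaks and 37.3% of 3'UTR peaks on mRNAs. The 1023 peaks belonged to 1023 genes, and 494 of these genes (48.3%) had no peak of another class. A coding-exon or 3'UTR peak was also present in 41.5%. Among hosts whose nearest 5'UTR peak was intermediate, 38.1% had no other class and 51.5% had a coding-exon or 3'UTR peak.

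The first base of the RefSeq start was adenine more often among start-proximal hosts than among the comparison genes. That start, joined by symbol, can differ from the one from which the peak list measures distance. A RefSeq start was matched for 84.3% of start-proximal hosts that could be used (830 genes), and 478 of these (57.6%, 54.2 to 60.9) begin with A. Among 3833 coding genes with a coding-exon or 3'UTR peak and no 5'UTR peak the share was 45.6% (44.0 to 47.2). Among 3877 coding genes without a peak and with a control value of at least 1 it was 43.1% (41.5 to 44.7), and over all 15843 coding genes with a start it was 50.7%. Intermediate hosts stood at 49.5% (42.8 to 56.2) and distal hosts at 48.9% (40.5 to 57.3), whose intervals overlap that of the start-proximal hosts. With genes of 1 listed start only, a choice added after the data were seen, the share was 59.2% in start-proximal hosts (55.3 to 63.0), 45.7% in hosts of coding-exon or 3'UTR peaks and 42.2% in expressed genes without a peak. C immediately before A, the pair most common at human starts, was present in 43.7% of start-proximal hosts, against 34.2%, 31.5% and 36.9% of the same 3 sets of coding genes. The pair includes the A counted above, so its share is not a separate difference. Of the starts with A, C came before it in 363 of 478, against 1309 of 1747, 1223 of 1671 and 5849 of 8034.

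Within the start-proximal hosts the share with A was 57.9% where the nearest midpoint lay at 0 to 50 bases, 60.0% at 51 to 100 and 54.1% at 101 to 200, with overlapping intervals. It was 59.0% in hosts with no peak of another class and 56.2% in hosts that also had a coding-exon or 3'UTR peak. The m6A consensus, searched as GGACA or GGACC or GGACT on the sense strand only, was found in the 50 bases from the start in 15.3% of start-proximal hosts (13.0 to 17.9). It was found in 13.3% of hosts of coding-exon or 3'UTR peaks only, in 13.6% of expressed genes without a peak and in 14.3% of all coding genes. Median GC content of those 50 bases was 66% in start-proximal hosts, against 68%, 66% and 64%. A match is a description of the letters, and neither the base nor the motif says which mark was captured. These intervals cover counting error over genes only. Start-proximal hosts also had higher control values than the comparison genes, as given below, and the part of that difference in these shares was not tested.

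**Figure D3:**
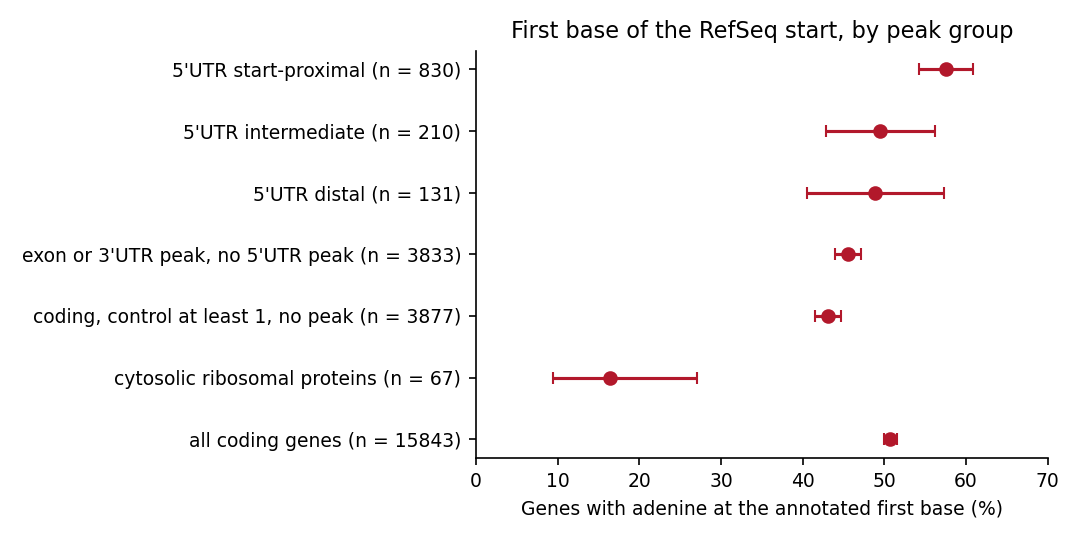
Share of genes whose annotated first base is adenine (x axis, %, with 95% Wilson intervals) by group (y axis, n genes with a matched start). Start-proximal hosts are at 57.6%, hosts of coding-exon or 3'UTR peaks only at 45.6% and cytosolic ribosomal protein genes at 16.4%.

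Ribosomal protein genes held no 5'UTR peak. Of 84 listed cytosolic ribosomal protein genes 0 were hosts, although 79 had a control value of at least 100, with a median of 1362. RPLP1 had 9082 and 7654 in the METTL3 knockdown libraries 1 and 2, against 8331 in the control, and RPLP0 had 5930 and 5603, against 6021. Any peak was present in 13 of the 84, with 15 peaks in all: 8 intron, 4 upstream, 2 coding-exon and 1 3'UTR. Their starts begin with A in 16.4% of the 67 matched genes (9.42 to 27.1) and with C in 71.6%. Whether the first base bears on the absence of 5'UTR peaks was not tested, and peaks of every class were few in these genes. Of 78 mitochondrial ribosomal protein genes 0 were hosts as well. Of all 895 genes at 100 or more in the control, 80 had a start-proximal peak. FTH1, the ferritin heavy chain, had the highest control value of all hosts, at 8491.

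Hosts of start-proximal peaks were expressed at higher values than hosts of internal peaks. The median control value was 16.2 over 1016 listed start-proximal hosts (quartiles 6.50 and 37.4), 10.4 over intermediate and 7.71 over distal hosts. It was 6.14 over genes with a coding-exon or 3'UTR peak and no 5'UTR peak, 0.63 over genes without a peak and 3.53 over all listed genes. Only 2.07% of start-proximal hosts were under 1 in the control, against 13.8% and 36.1% of the internal-peak hosts and of all genes. Start-proximal hosts with no other peak class had a median of 22.7, and those with a coding-exon or 3'UTR peak 11.8. The unit of the table is not stated and scaling with gene length was not shown, so these medians describe the listed values and compare no molecules between genes. Enough reads are needed to call a peak, and the part of that in these levels was not tested.

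The share of genes with a start-proximal peak depended on the control value in another way than the share with an internal peak. It was 0 of 1690 genes listed at 0, 0.429% below 1, 5.35% at 1 to 5, 8.68% at 5 to 20, 11.9% at 20 to 100 (10.8 to 13.1) and 8.94% at 100 or more (7.24 to 11). The share with a coding-exon or 3'UTR peak was highest, at 46.4%, at 1 to 5 and stood at 45.7%, 33.1% and 11.1% in the 3 higher bins. The bins were set after the data were seen.

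**Figure D4:**
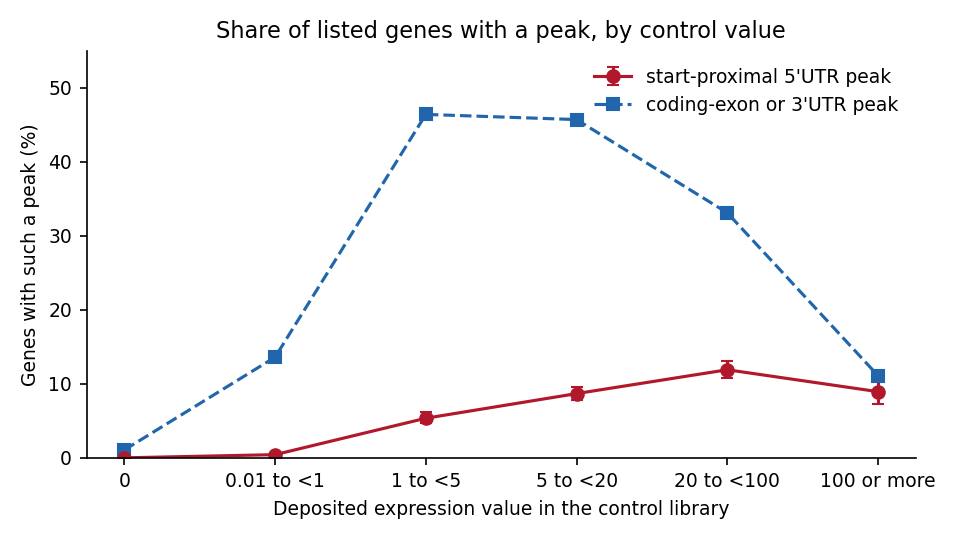
Share of listed genes (y axis, %) with a start-proximal 5'UTR peak (red, 95% Wilson intervals) and with a coding-exon or 3'UTR peak (blue), by the deposited control value (x axis). The red share is 11.9% at 20 to 100 and 8.94% at 100 or more, while the blue share is 46.4% at 1 to 5 and 11.1% at 100 or more.

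METTL3 itself was lower in both knockdown libraries, at 8.35 and 4.99, against 20.8 in the control, a log2 change of -1.54 (SE 0.327, limma adjusted p = 1), and had no peak. PCIF1, the m6Am writer, stood at 37.9 and 30.8 in the knockdown libraries, against 35.8 in the control. The epithelial markers KRT5, KRT8 and EPCAM stood at 633, 451 and 179 in the control, and the leukocyte marker PTPRC at 0.17 and the endothelial marker PECAM1 at 0.36. Of the fibroblast markers looked up, COL1A1 stood at 3.34 in the control and PDGFRB at 0.01. Knockdown 2 stood apart from both other libraries at CDKN2A, a cell cycle inhibitor, with 145 in knockdown 2, 0 in knockdown 1 and 0.04 in the control. What this library difference contributes to the values below was not tested, and each is given per library. Nothing in the labels says that the libraries came from separate cultures, so the p-values reflect the scatter among these libraries alone, and that scatter may be technical.

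No host of a 5'UTR peak passed the test on METTL3 knockdown. Of 1696 host symbols 1465 matched the expression table, 135 of the 231 unmatched being noncoding, and 1420 passed the filter of a value of at least 1 in 1 library. With limma on log2(value + 1), 0 of the 1420 hosts and 0.0% of all 12355 genes had an adjusted p below 0.05. At an unadjusted p below 0.05 there were 26 hosts (1.83%), 11 higher and 15 lower on knockdown, against 1.31% of all genes tested. Of 1002 tested start-proximal hosts it was 20 (2.0%). Both knockdown libraries are set against the same control, so their changes share its error. The median log2 change of start-proximal hosts was 0.00 in knockdown 1 and -0.07 in knockdown 2, against -0.01 and 0.00 over all genes tested, and -0.04 and -0.02 over hosts of coding-exon or 3'UTR peaks only. Above the control were 50.4% of start-proximal hosts in knockdown 1 and 40.6% in knockdown 2, against 47.3% and 50% of all genes tested.

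Changes of at least 2-fold were few. In knockdown 1, 4 of 1420 hosts were at least 2-fold higher (background 0.243% of all genes tested) and 8 at least 2-fold lower (0.405%). In knockdown 2, 25 were higher (3.65%) and 20 lower (0.979%), which are 1.76% and 1.41% of the hosts. In both libraries 0 hosts were at least 2-fold higher (background 0.0324%) and 3 were at least 2-fold lower (0.0971%). These counts are on the log2(value + 1) scale, which shrinks the change of low genes. With a pseudocount of 0.1, 4 hosts of low value were at least 2-fold higher in both libraries, DUSP1, GLT8D2, VTCN1 and WSCD1, named after their values were seen. GLT8D2 stood at 3.03 and 2.39 in the knockdown libraries, against 0.87 in the control.

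The 3 were NGFR, PGF and SPRR2A, and for each both knockdown libraries lay below the control. NGFR, a neurotrophin receptor found on squamous basal cells, had 18.2 and 18.7 in knockdown 1 and 2, against 43.6 in the control, a log2 change of -1.20 (SE 0.237, limma unadjusted p = 0.00241, adjusted p = 1). Its peak at chr17:47572582-47572799 had its midpoint 36 bases from the start and covered it. The gene also had 2 3'UTR peaks. PGF, a growth factor of the VEGF family, had 4.84 and 5.03, against 12.3, a log2 change of -1.17 (SE 0.243, adjusted p = 1 by limma), and its peak lay 182 bases from the start. SPRR2A, a cornified envelope protein, had 6.68 and 3.99, against 17.1, a log2 change of -1.55 (SE 0.325, adjusted p = 1 by limma). It belongs to a family of near-identical genes whose reads can be split or shared. Its peak lay 84745 bases from the annotated start, and the deposited 5'UTR label of that peak was not checked.

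Other hosts were picked after their values were seen, and do not include every host with changes of this size. PSAT1, which makes the serine precursor phosphoserine, had a peak with its midpoint on the annotated start itself and stood at 78.9 and 64.0 in the knockdown libraries, against 34.0 in the control (log2 change 1.04, SE 0.264, limma adjusted p = 1). PHGDH, the enzyme before it in the pathway and a member of a compiled group, stood at 135 and 151, against 91.9. MAT2A, which makes the methyl donor S-adenosylmethionine, stood at 39.3 and 38.04, against 22.3. For all 3 both knockdown libraries lay above the control. FOXQ1, a forkhead factor, stood at 20.01 and 17.4, against 9.53, and IGFBP3, an insulin-like growth factor binding protein, at 9.78 and 6.0, against 2.98.

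Other hosts differed mainly in one library. CXCL6, a neutrophil chemokine, stood at 36.2 in knockdown 1 and 83.5 in knockdown 2, against 130 in the control. COL17A1, a hemidesmosome collagen, stood at 61.2 and 27.3, against 84.9. CEACAM5, an adhesion glycoprotein, stood at 2.49 and 33.4, against 4.10, and KRT13, a keratin of differentiated squamous epithelium, at 7.55 and 29.2, against 7.35. For CEACAM5 and KRT13 knockdown 2 alone lay far from the control, the library that also stood apart at CDKN2A.

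**Figure D5:**
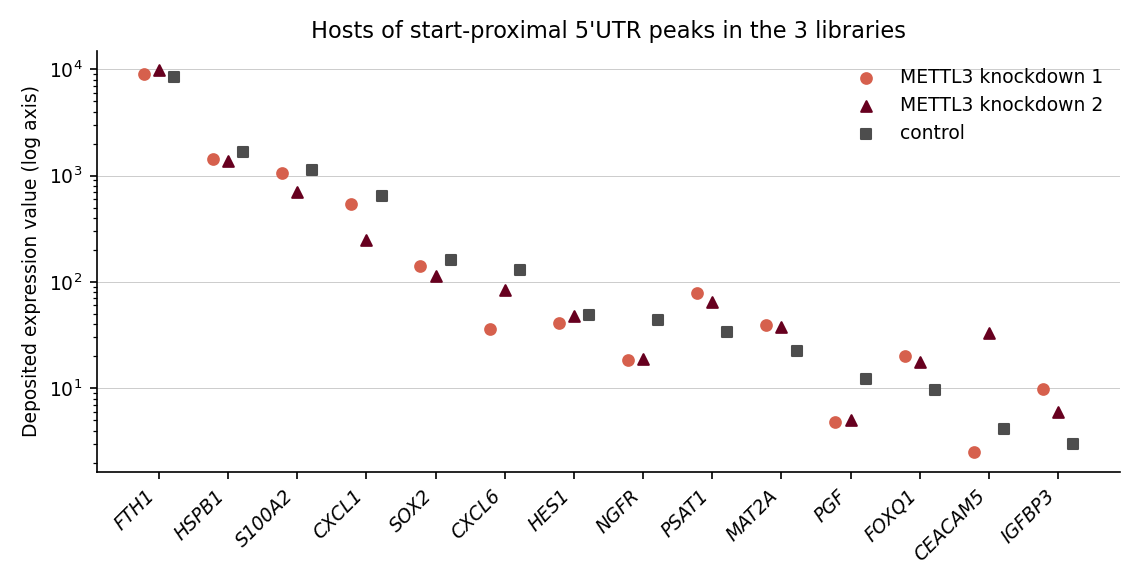
Deposited expression value (y axis, log axis) of 14 hosts of start-proximal 5'UTR peaks (x axis) in METTL3 knockdown 1, METTL3 knockdown 2 and the control, 1 point per library. For NGFR and PGF both knockdown points lie below the control, for PSAT1 and MAT2A both lie above it, and for CEACAM5 knockdown 2 lies apart at 33.4.

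The 10 start-proximal hosts of highest control value include ferritin, stress and squamous epithelial genes. FTH1 stood at 9088 and 9853 in the knockdown libraries, against 8491 in the control, with a 204-base peak 75 bases from the start. HSPB1, a small heat shock protein, stood at 1433 and 1367, against 1665. S100A2, a calcium-binding protein of squamous epithelium, stood at 1058 and 704, against 1128. For HSPB1 and S100A2 both knockdown libraries lay below the control, and for FTH1 both above it. MT2A, a metallothionein of a near-identical family, stood at 1360 and 472, against 966, so the knockdown libraries lay on opposite sides of the control. KRT6A, a keratin with near-identical paralogs, stood at 798 and 463, against 888. The other 5 were BANF1, CAPNS1, CXCL1, MYL12B and PRDX5, with control values between 583 and 824, and all 10 had 1 peak only, the 5'UTR one.

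Among the compiled gene groups, squamous and epithelial genes had the largest share of hosts, 15 of 45 listed (33.3%), against 8.04% of all listed genes, and 13 of the 15 were start-proximal. The groups were compiled with earlier results of these data known. The 15 include EPCAM, an adhesion molecule, SOX2, a squamous lineage factor, CDH1, the E-cadherin gene, and the desmosome gene DSP. Their median log2 change was -0.09 in knockdown 1 and -0.50 in knockdown 2, against -0.01 and 0.00 over all genes. By limma 0 of 15 passed the adjusted or unadjusted threshold, against 0.0% and 1.31% of all genes tested. SOX2, with a peak 90 bases from the start, stood at 141 and 114 in the knockdown libraries, against 161 in the control, and EPCAM at 162 and 122, against 179. CDH1 stood at 50.1 and 39.6, against 51.6. Each of these 3 lay below the control in both libraries.

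Immediate early genes, which answer growth signals within minutes, followed with 11 of 44 (25%), 6 of them start-proximal and 5 intermediate. Among genes with a peak of any class, hosts were 30.6% of this group, against 18.9% of all. MYC stood at 24.2 and 32.2 in the knockdown libraries, against 25.7 in the control, EGR1 at 30.3 and 18.6, against 22.3, and JUN at 17.5 and 25.6, against 13.7. Their peaks had midpoints 210, 252 and 672 bases from the start. The JUN peak was among the widest, at 1258 bases, and JUN is a gene without introns. DUSP1, a phosphatase that ends MAP kinase signals, stood at 4.78 and 5.88, against 2.32. Of the 11, DUSP1 alone had an unadjusted p below 0.05 by limma (0.0178), against 1.31% of all genes tested, and 0 passed adjustment.

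Heat shock and ATF4 response genes had 8 hosts of 34 (23.5%), 7 of them start-proximal: besides HSPB1, PSAT1 and PHGDH, they include HSPA1B, the inducible HSP70. It stood at 94.8 and 211 in the knockdown libraries, against 95.7 in the control, and is near-identical to HSPA1A. HSP90AA1, with a peak 232 bases from the start, stood at 514 and 446, against 555. At an unadjusted p below 0.05 were 2 of the 8 tested, PSAT1 and PHGDH, against 1.31% of all genes tested, and 0 passed adjustment by limma. Among genes with a peak of any class, hosts were 42.1% of this group, against 18.9% of all.

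In the Notch pathway 9 of 58 listed genes (15.5%) were hosts, 7 of them start-proximal. The receptor NOTCH2 stood at 4.71 and 5.18 in the knockdown libraries, against 4.15 in the control, with a peak 104 bases from the start. The ligand JAG1 stood at 9.80 and 6.06, against 10.97, with a peak 88 bases from the start. ADAM10, the protease that releases the receptor's ectodomain, stood at 14.4 and 16.0, against 19.6, with an intermediate peak at 229 bases. RBPJ, the DNA-binding partner of the receptor's intracellular domain, had a distal peak. Of the target genes, HES1 stood at 40.7 and 48.02, against 48.4, with a 203-base peak at chr3:193853859-193854062 whose midpoint lay 30 bases from the start, plus 1 coding-exon peak. The ubiquitin ligase subunit FBXW7, which marks Notch for degradation, stood at 3.12 and 2.76, against 4.07, with a peak at 26 bases. None of the 9 passed limma's adjusted or unadjusted threshold, against 0.0% and 1.31% of all genes tested.

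The m6A and m6Am machinery had 4 hosts of 33 (12.1%). PRRC2A, a reader protein, had its only peak 62 bases from the start and stood at 60.2 and 64.2 in the knockdown libraries, against 67.7 in the control. YTHDF3, another reader, stood at 7.24 and 7.34, against 6.95, and METTL4, a methyltransferase of internal m6Am in small nuclear RNA, at 3.66 and 3.88, against 3.12. The peak of CBLL1, a member of the writer complex, was annotated to a noncoding transcript. Genes of cap formation and cap binding had 5 hosts of 27 (18.5%), which are 27.8% of those with a peak of any class. EIF4EBP1, which holds back the cap-binding factor, stood at 332 and 366 in the knockdown libraries, against 235 in the control, above it in both (log2 change 0.57, SE 0.266, limma adjusted p = 1), with a peak 52 bases from the start. CMTR1, which methylates the sugar of the first transcribed base, stood at 7.08 and 7.50, against 7.22. EIF4A1, a helicase of initiation, stood at 430 and 475, against 431, with a peak 1506 bases from the start.

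Of the other compiled groups, splicing factors had 11 hosts of 60 (18.3%), cullin and HECT ubiquitin ligases 6 of 39 (15.4%), chromatin regulators 10 of 74 (13.5%) and cell cycle genes 6 of 47 (12.8%). TRA2B, HNRNPD and HNRNPR among the splicing factors had peaks 136, 96 and 87 bases from the start. ARID1A, a subunit of the BAF remodelling complex, had 8 peaks in all, with the 5'UTR one at 29 bases, and ASXL1 had 6. CCND1, the cyclin D1 gene, stood at 231 and 169 in the knockdown libraries, against 245 in the control, and its only peak lay 128 bases from the start. CUL1, a cullin scaffold, had 2 5'UTR peaks, the first 908 bases wide. In none of these lists did a host pass limma's adjusted or unadjusted threshold, against 0.0% and 1.31% of all genes tested. Gene families were also taken by symbol, to be set against the same 8.04% of all listed genes. Of 598 zinc finger genes 39 were hosts (6.52%), with 13 start-proximal, 7 intermediate and 17 distal. Solute carriers had 31 hosts of 354 (8.76%), transmembrane TMEM genes 16 of 238 (6.72%), HOX genes 5 of 38 (13.2%), kinesins 4 of 39 (10.3%) and histone genes 2 of 83 (2.41%). Among family members with a peak of any class the shares, zinc finger genes first, were 10.2%, 19.5%, 15.1%, 17.2%, 19.0% and 10.0%.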

How the data were processed

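The deposited peak list holds a position, host gene, transcript description, location class and start distance for each region, with no score. TopHat2, HTSeq, MACS2 and build hg38 are named in the submitters' processing notes, with neither versions nor parameters, and pooling of the immunoprecipitations is not stated. Peak positions pass the last GRCh38 gene end on several chromosomes, so the list's coordinates are given as deposited and its build is not taken to be hg38. RefSeq windows are on GRCh38.p14 and were joined by gene symbol only. The RNA-seq table is an expression signal with 2 decimals for each gene in each library, and the header deposited by the authors names no unit. The listed values sum to 617404 in knockdown 1, 626689 in knockdown 2 and 607816 in the control. Depth is unknown, so no counting interval is given for expression.

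Of 18249 rows, 25 whose symbol had become a date were left out. Genes that reached a value of 1 in any library (12355) were compared on log2(value + 1), which understates changes of low genes, by limma 3.58.1 (R 4.3.3) with a mean-variance trend and Benjamini-Hochberg adjustment over all of them. The control has 1 library, so the spread comes from the 2 knockdown libraries with 1 residual degree of freedom. The procedure was run on simulated data with the same spread for every gene, where only recovery of the largest changes was required. That run does not show how well changes near 2-fold are found in these data. Another pseudocount, filter, scaling, distance bound and set of hosts were tried as alternatives, as was leaving out each knockdown library. Intervals of shares are 95% Wilson intervals and cover counting error alone. Transcript kind was read from the end of each description. The first base came from the most upstream RefSeq start listed for each gene in the set used here. Tables were handled in Python 3.11.15 with pandas 2.3.3 and intervals computed with statsmodels 0.14.6.

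The regions, gene groups, distance bounds and tests were chosen with earlier results of these data known. Genes named are the 4 of highest control value in each group, the 5 hosts in the expression table with the most 5'UTR peaks (ties broken by control value), hosts with a mean of at least 5 that differ 2-fold the same way in both knockdown libraries, the 10 most abundant start-proximal hosts, the widest and most distal peaks and METTL3. Others are said to be picked after their values were seen, or are members of a group chosen to show its roles.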

Additional observations from a re-analysis of the deposited data

How the results depend on the processing

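The share of 5'UTR peaks that were start-proximal, 58.1% at 200 bases, was 40.9% at 100 bases, 71.1% at 500 bases, 63.1% with 1 peak a gene, 69.6% among peaks of at most the median width of all peaks and, in an alternative chosen after seeing the data, 67.7% on mRNA transcripts only. The median width of start-proximal mRNA peaks, 224 bases, was 221 at a bound of 100 bases and 229 at 500, both chosen after seeing the data. The median control value of hosts, 13.8, was 20.04 among hosts whose peaks were all of the 5'UTR class. The number of hosts at an unadjusted p below 0.05, 26, was 13 among hosts with 5'UTR peaks only, where fewer genes are counted. The number at least 2-fold lower in both knockdown libraries, 3, was 0 in those hosts, and the number at least 2-fold higher in both, 0, was 4 with a pseudocount of 0.1. The 0 hosts called by limma stayed 0 under all 8 alternatives run. Those limited to hosts with 5'UTR peaks only or to start-proximal hosts are subsets of the same fit and could give only 0. The median log2 change of hosts, -0.03, ranged from -0.065 to -0.002 when 1 knockdown library was left out, with no test. The directions of NGFR, PGF and SPRR2A did not reverse under the alternatives run. These genes were chosen for lying below the control in both knockdown libraries, so leaving out either library could not reverse them. Of 80 named hosts, 24 changed in opposite directions in knockdown 1 and knockdown 2, so that leaving out 1 library turns them, among them MT2A (log2 0.49 and -1.03), CEACAM5 (-0.55 and 2.75), EGR1 (0.42 and -0.25) and MYC (-0.09 and 0.32). Some of the 80 were named for their changes, and the share was not counted over all hosts or all genes. It therefore describes the named genes only. No paired analysis was possible because the control has 1 library, so the groups share fewer than 2 replicate numbers. With 1 control, no peaks from knockdown cells, no peak score and unknown depth, neither small changes of hosts nor the strength of 5'UTR peaks could be measured.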
